A study of Arabidopsis thaliana with 24 samples.

Results

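Natural accessions of Arabidopsis thaliana can be paired in several ways, and 290 genes separate Altenb-2 and Vash-1 from Kly-1 and Shigu-2. In 130 of them the transcript start tags were at least 2 times higher in both Altenb-2 and Vash-1 than in either of the others, and in 160 the reverse held, out of 13890 genes tested. Among protein-coding genes, the highest levels on the first side belonged to ESP, which steers glucosinolate breakdown, to the arginine decarboxylase gene ADC2 and to BT1. On the second side they belonged to ECS1, a cell wall protein gene, the glutathione transferase gene GSTF6 and the cold-regulated genes COR15B and GolS3. For 30 of the 290 genes the rule was no longer met once tags on the far side of the start codon were counted too.

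The data come from CAGE (cap analysis of gene expression), which captures RNA by its 5′ cap and sequences the first bases, so that each tag marks a transcription start. The plants were wild type (WT) and were grown for 2 weeks at 22 °C in continuous light of 40 µE, and the aerial parts were taken. The labels give 8 groups of 3 libraries, a control and a treated group of each accession, and the treatment was 24 hours of high light and cold at 140 µE and 4 °C. The deposited table holds 4 series of clusters named by an initial, read here as 1 pooled set for each accession. Which control and which treated libraries went into a set is not stated in the sources used here. Every value is therefore a single pooled level without replicates, standard deviation or test, and an accession cannot be told apart from the mix of treatments in its pool. Fewer cells of a type and less RNA per cell cannot be told apart either.

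Outside the ribosomal RNA repeats the sets held 22462179 tags for Altenb-2, 24535666 for Vash-1, 29311532 for Kly-1 and 37230794 for Shigu-2. Ribosomal RNA took 54.6% and 53.1% of all tags in Altenb-2 and Vash-1 and 44.3% and 40.8% in Kly-1 and Shigu-2. Its share thus separates the same pairs as the members do, and its part in the results was not tested. Of the 4 leaf markers, RCA lay between 2828 and 3892 CPM, the tag count scaled to 1e6 tags outside those repeats. Of 6 root markers only BGLU23 reached the minimum of 5 CPM, at 421 to 839 CPM, and the others stayed at 2.22 or below. Clusters of fewer than 5 tags are not listed, so a gene without a cluster is called unlisted and not absent.

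The members were chosen by the measured levels themselves. Clusters counted as genic when their highest base was on the strand of the gene and anywhere from 500 bp ahead of its annotated start to its start codon, and their counts were added up for each gene. Genes with 5 CPM in some set were tested, and a member had both sets of one pair at 2 times or more of both sets of the other. The levels and ratios below therefore describe that choice. The 130 genes are 0.936% of the tested genes and the 160 genes are 1.15%, and nothing is read from either share. Pairing Altenb-2 with Shigu-2 gave 133 genes by the same rule, and pairing Altenb-2 with Kly-1 gave 96.

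Near the limit, membership turns on small differences. Just inside on the first side were AT2G05540, ADC2 and AT3G03020, with ratios of 2.02, 2.03 and 2.04 between the nearest sets of the pairs. Just outside were AFB5, PRXCA and GRF11 at 1.996, 1.95 and 1.94. On the second side RNR2A, AT4G01990 and SDG37 were inside at 2.002, 2.003 and 2.01. PAM68, AT3G47480 and PSK5 were outside at 1.9997, 1.998 and 1.99.

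RNA polymerase II starts transcription either at a sharp site, often a short way downstream of a TATA box, or at many weak sites over a broad stretch. Accessions of Arabidopsis are known to differ widely in defence and glucosinolate genes, several of which are silent or missing in some of them. Core promoters of 7 members are printed as examples. Their highest base lies at most 16 bases inside the annotated gene, so that the reference sequence covers the start. Other members, such as AT5G48540, have such starts too. The reference is TAIR10.1, from an accession that is none of the 4, and each line runs 5′ to 3′ on the strand of the gene. The last capital is the base with the most tags, and the earlier capitals are a TATA motif.
ESP, chr1:20173924-20173978, minus strand: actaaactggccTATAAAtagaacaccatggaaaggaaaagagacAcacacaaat
CYP81D11, chr3:10790544-10790598, minus strand: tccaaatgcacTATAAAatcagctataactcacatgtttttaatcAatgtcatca
AT2G04460, chr2:1548990-1549044, minus strand: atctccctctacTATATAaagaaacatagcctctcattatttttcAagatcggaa
AT1G75945, chr1:28515907-28515961, minus strand: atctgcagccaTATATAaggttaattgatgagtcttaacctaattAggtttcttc
AT3G60415, chr3:22334386-22334440, plus strand: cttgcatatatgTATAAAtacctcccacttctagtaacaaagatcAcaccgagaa
CYTC6A, chr5:18176871-18176925, minus strand: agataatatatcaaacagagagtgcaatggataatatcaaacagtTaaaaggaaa
AT1G67365, chr1:25238365-25238419, plus strand: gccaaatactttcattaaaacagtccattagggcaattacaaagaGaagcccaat
The first 5 carry the motif 33 or 34 bases before the start and used the same highest base in all 4 sets. Over all 290 members 35.9% had the motif, so the 7 do not stand for the members. CYTC6A and AT1G67365 have no such motif in the window searched, and their highest base was not shared by all sets.

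ESP had the highest level on the side of Altenb-2 and Vash-1. It encodes the epithiospecifier protein, which acts with myrosinase so that glucosinolates break down to nitriles and epithionitriles in place of isothiocyanates. ESP had 2956 and 1155 CPM for Altenb-2 and Vash-1 and 124 and 6.45 for Kly-1 and Shigu-2. The pairs lie apart but are not uniform, since Shigu-2 was far below Kly-1 and Vash-1 below Altenb-2. The nearest sets, Vash-1 and Kly-1, differed 9.29 (8.97 to 9.62) times, with an exact binomial 95% interval. This interval, as those of all other ratios here, covers counting error only. Intervals of shares further below are exact binomial over genes and take each gene as an independent draw. ESP was the only member among 8 tested genes of glucosinolate hydrolysis, where 0.936% of all tested genes were members on that side. The list had a median log2 difference of -0.27, beside -0.15 over all tested genes. The myrosinase gene TGG1 had 468 and 568 CPM against 639.9 and 730.2 for Kly-1 and Shigu-2, on the opposite side of the split and under the limit.

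ADC2 and ACL5 both act in polyamine synthesis. ADC2, arginine decarboxylase, makes the precursor of putrescine and had 885 and 920.4 CPM for Altenb-2 and Vash-1 and 435 and 411 for Kly-1 and Shigu-2. Its values form a tight pair above a tight pair at a ratio of 2.03 (1.99 to 2.08), close to the limit. ACL5, thermospermine synthase, which acts in xylem development, had 37.1 and 47.97 CPM for Altenb-2 and Vash-1 and 1.33 and 1.02 for Kly-1 and Shigu-2. The nearest sets of ACL5 differed 27.9 (20.2 to 39.5) times, and its highest base was the same in all 4 sets.

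Other members of high level on this side had various roles. BT1, a scaffold protein with BTB and TAZ domains, had 870.4 and 681 CPM for Altenb-2 and Vash-1 and 294 and 214 for Kly-1 and Shigu-2. CYP81D11, a cytochrome P450 induced by xenobiotics and jasmonate, had 196 and 256 CPM for Altenb-2 and Vash-1 and 85.6 and 71.2 for Kly-1 and Shigu-2. Both stood a little over the limit, at 2.32 and 2.28 times. With ribosomal tags kept in the total the log2 gaps were 0.96 in BT1, 0.89 in CYP81D11 and 0.72 in ADC2, so that none of the 3 met the rule. AT5G21090, a leucine-rich repeat protein, had 286 and 405 CPM for Altenb-2 and Vash-1 and 11.5 and 10.8 for Kly-1 and Shigu-2, a ratio of 24.9 (22.3 to 27.9). VSP1, a vegetative storage protein that responds to jasmonate, had 34.3 and 206 CPM for Altenb-2 and Vash-1 and 1.399 and 0.886 for Kly-1 and Shigu-2. Vash-1 thus stood 6.01 times above Altenb-2 in VSP1, and both stood above the other pair. AT3G03150, an uncharacterised protein, had 217 and 181 CPM for Altenb-2 and Vash-1 and 53.5 and 49.7 for Kly-1 and Shigu-2. GRP5, a glycine-rich protein, had 222 and 198 CPM for Altenb-2 and Vash-1 and 95.6 and 95.6 for Kly-1 and Shigu-2. The gap of GRP5 was close to the limit, and the gene no longer met the rule when tags past the start codon were added.

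Several of the widest gaps lay in non-coding genes, a pseudogene and genes given here by their annotated family only. The non-coding RNA gene AT2G05914 had 344 and 195 CPM for Altenb-2 and Vash-1 and 4.84 and 2.85 for Kly-1 and Shigu-2. AT4G04223, also non-coding, had 102 and 109.6 CPM for Altenb-2 and Vash-1 and 0.751 and 1.05 for Kly-1 and Shigu-2. The first 100 bp of AT4G04223 have 1 near-identical copy elsewhere in the reference, so its tags may be shared. The pseudogene AT2G04460, whose TATA-bearing start is printed above, had 20.6 and 25.4 CPM for Altenb-2 and Vash-1 and 0.375 and 0.161 for Kly-1 and Shigu-2. AT3G24542, annotated as related to beta-galactosidase, had 33.3 and 38.6 CPM for Altenb-2 and Vash-1 and 0.273 and 0.376 for Kly-1 and Shigu-2. AT1G03940, an acyltransferase of the HXXXD type, had 15.3 and 11.2 CPM for Altenb-2 and Vash-1 and was unlisted in the other pair. In these 5 genes the high sets were at most 1.77 times apart.

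NLR immune receptors, which recognise pathogen effectors inside the cell, had members on both sides. Of 58 tested genes annotated as such, 6 were members higher in Altenb-2 and Vash-1 and 1 was higher in Kly-1 and Shigu-2. Together they were 12.1% of the family, where 2.09% of all tested genes were members. Over the whole family 29 genes had a difference above 0 and 29 below, beside 4872 and 9018 of all tested genes. Scaled by the median of ratios the family had 33 and 25, beside 6952 and 6935. With ribosomal tags kept in the total it had 15 and 29 of 44, beside 1478 and 10143. RPP4, a receptor for downy mildew, had 45.01 and 6.89 CPM for Altenb-2 and Vash-1 and 0.171 in Kly-1 and was unlisted in Shigu-2. The start of RPP4 also has 1 near-identical copy, so its level is uncertain. AT1G56520 had 7.75 and 13.4 CPM for Altenb-2 and Vash-1 and was unlisted in the other pair. DAR4, an NLR with a LIM domain, is on the list of named receptors but not among the 58 genes, which were picked by product text. It had 0.8904 and 10.96 CPM for Altenb-2 and Vash-1 and 0.341 in Kly-1 and was unlisted in Shigu-2. Its level rests on Vash-1, which stood 12.3 times above Altenb-2. RPP4 and DAR4 were the only members among 18 tested genes on the list of named receptors, whose median difference was -0.24.

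**Figure D1:**
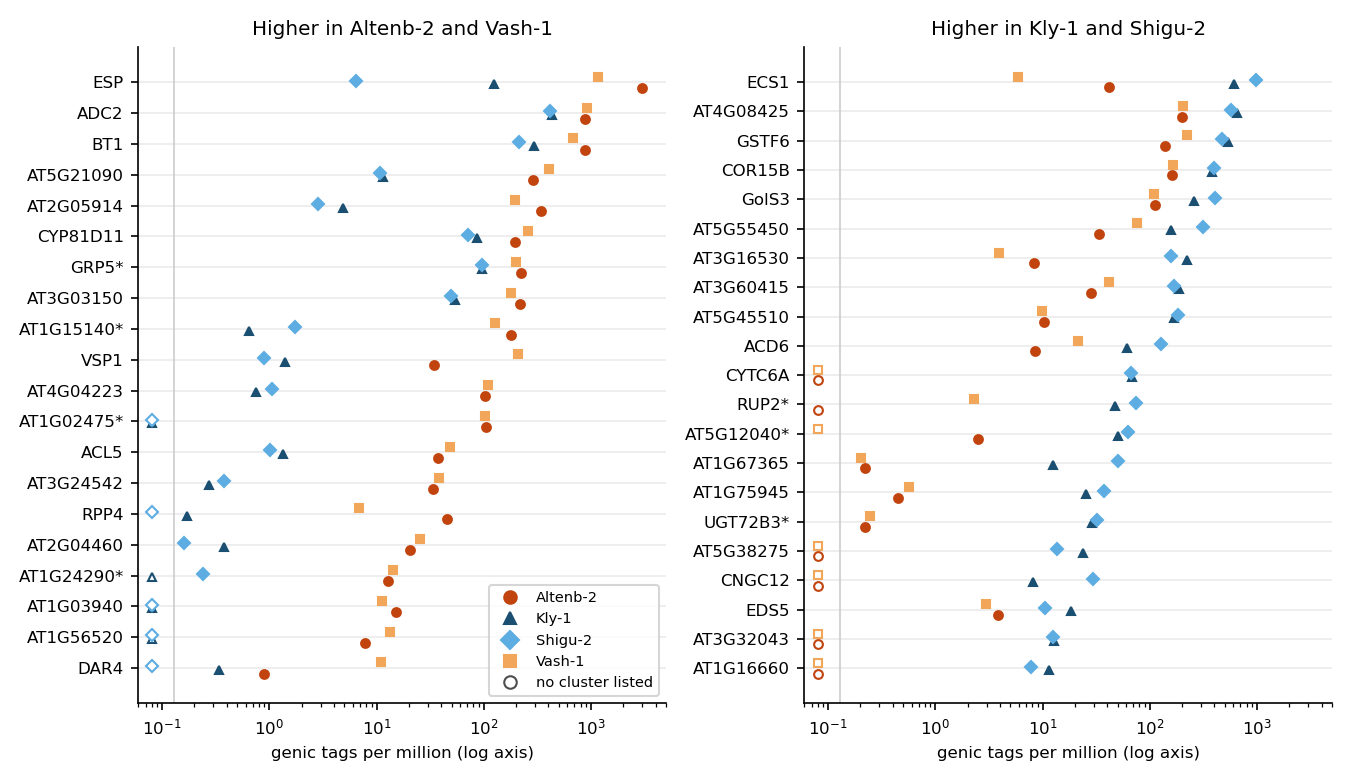
Genic CPM (log axis) of the named members in the 4 pooled sets, 1 symbol per set, with the genes ordered by the mean level of the high pair; open symbols at the left edge stand for sets without a listed cluster, and an asterisk marks a gene that no longer meets the rule when tags past the start codon are added. ESP, at 2956 CPM in Altenb-2, and ECS1, at 975 CPM in Shigu-2, hold the top rows.

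ECS1 had the highest level on the side of Kly-1 and Shigu-2, with 614 and 975 CPM there and 41.3 and 5.95 CPM for Altenb-2 and Vash-1. The nearest sets differed 14.9 (13.9 to 15.9) times, and the low sets were themselves unequal. The window of AT4G08425, a small nucleolar RNA gene, had 646 and 573 CPM for Kly-1 and Shigu-2 and 199 and 203 CPM in the others. Its highest base lay 290 bp ahead of the annotated gene, so these tags may belong to another transcript.

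COR15B and GolS3 were the members among 19 tested cold-regulated genes, where 1.15% of all tested genes were members higher in Kly-1 and Shigu-2. COR15B, which protects chloroplast membranes during freezing, had 384 and 396 CPM for Kly-1 and Shigu-2 and 162 and 166 CPM for Altenb-2 and Vash-1. GolS3, which makes galactinol for raffinose synthesis, had 257 and 404 CPM for Kly-1 and Shigu-2 and 113 and 109 CPM in the others. The pairs were apart at 2.32 and 2.28 times. All 19 genes of the list had a difference below 0, with a median of -0.82, whereas over all tested genes 9018 lay below 0 and 4872 above. In 13 of the 19 both Kly-1 and Shigu-2 stood above both other sets, which held for 35.7% of all tested genes. The reverse held for none of the 19 and for 13.3% of tested genes. Scaled by the median of ratios, which brings the median of all tested genes to 0.00, the list had a median of -0.67, with 16 genes below 0 and 3 above. Cold is part of the treatment, and a larger treated share in a pool cannot be told apart from a difference between accessions.

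Cold genes that were no members show how far that list-wide difference went. COR15A had 691 and 748 CPM against 1102 and 1490.4 for Kly-1 and Shigu-2, and COR47, a dehydrin, had 708 and 717 CPM against 1005 and 1815. RD29A had 1132 and 1453 CPM against 1577 and 2277 in the same order. The pairs were apart in these 3 genes but under the 2-fold limit. COR413-PM1, a membrane protein, had 3099 and 2505 CPM against 2731 and 3493, and here the pairs overlapped.

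Genes of salicylic acid defence were members on the same side. ACD6, an ankyrin-repeat membrane protein that promotes salicylic acid signalling, had 61.7 and 126 CPM for Kly-1 and Shigu-2 and 8.55 and 21.6 CPM in the others. EDS5, which exports a precursor of salicylic acid from the chloroplast, had 18.5 and 10.4 CPM for Kly-1 and Shigu-2 and 3.83 and 2.98 CPM in the others. They were the members among 9 tested genes of the list, where 1.15% of all tested genes were members on that side. All 9 had a difference below 0, with a median of -0.46. Over all tested genes 9018 of 13890 lay below 0. In 5 of the 9 both Kly-1 and Shigu-2 stood above both other sets, which held for 35.7% of all tested genes, and in none the reverse, which held for 13.3%. PR1, the classical marker, had 4.74 and 24.7 CPM for Kly-1 and Shigu-2 and 1.69 and 2.49 CPM in the others, so that Vash-1 and Kly-1 were under 2 times apart. Scaled by the median of ratios, 8 of the 9 were below 0, beside 6935 of 13887 tested genes. In 4 of the 9 both Kly-1 and Shigu-2 then stood above both other sets, beside 3231 of all tested genes.

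Glutathione transferases, which join glutathione to reactive compounds, had 5 members among 33 tested genes, all higher in Kly-1 and Shigu-2. This was 15.2% of the family, where 1.15% of all tested genes were members on that side. GSTF6, which acts in camalexin synthesis, had 535 and 469 CPM for Kly-1 and Shigu-2 and 139 and 222 CPM for Altenb-2 and Vash-1. The nearest sets differed 2.11 (2.05 to 2.18) times, and under the median of ratios and TMM the log2 gap of 1.08 became 0.92 and 0.93, so that GSTF6 no longer met the rule. The other members, GSTU3, GSTU4, GSTU9 and GSTU25, were named after their values were seen. GSTU4 had 57.01 and 53.2 CPM for Kly-1 and Shigu-2 and 3.34 and 7.58 CPM in the others. Its neighbour GSTU3 had 8.05 and 1.504 CPM for Kly-1 and Shigu-2 and 0.448 in Vash-1, and was unlisted in Altenb-2. Over the family 24 genes were below 0 and 9 above, with a median of -0.42, where 9018 of all tested genes lay below 0 and 4872 above. Under the median of ratios the family counts were the same, with a median of -0.28. There 6935 of all tested genes lay below 0 and 6952 above.

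PAD3 and NIT4, also chosen after their values were seen, belong to related chemistry. PAD3, which completes camalexin, had 159 and 43.4 CPM for Kly-1 and Shigu-2 and 15.5 and 17.6 CPM in the others. NIT4, a nitrilase that detoxifies cyanoalanine, had 108 and 102 CPM and 16.8 and 19.9 CPM in the same order. Kly-1 stood well above Shigu-2 in PAD3, while in NIT4 both were close.

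Other members on this side include a channel, a lectin and genes of unknown function. CNGC12, a cyclic nucleotide-gated channel known from immunity, had 8.22 and 29.3 CPM for Kly-1 and Shigu-2 and was unlisted in the other pair. AT3G16530, a legume lectin family protein, had 221 and 157 CPM for Kly-1 and Shigu-2 and 8.28 and 3.91 CPM in the others. AT3G60415, of the phosphoglycerate mutase family, had 188 and 167 CPM and 28.4 and 41.7 CPM. In AT3G60415 the nearest sets differed 4.003 (3.75 to 4.28) times, at the TATA-bearing start printed above. AT5G55450, of the lipid-transfer protein family, had 159 and 313 CPM for Kly-1 and Shigu-2 and 33.7 and 76.3 CPM in the others. Its log2 gap of 1.06 became 0.99 under both the median of ratios and TMM, so that AT5G55450 no longer met the rule. The uncharacterised gene AT1G75945 had 25.7 and 37.04 CPM and 0.445 and 0.571 CPM. The non-coding RNA gene AT1G67365 had 12.5 and 50.7 CPM and 0.223 and 0.204 CPM, and Shigu-2 was 4.07 times above Kly-1.

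The pseudogenes AT3G32043, AT5G38275 and AT1G16660 were unlisted in both Altenb-2 and Vash-1. They had 12.8 and 12.4 CPM, 24.02 and 13.6 CPM and 11.4 and 7.74 CPM for Kly-1 and Shigu-2. Their highest bases lay 290, 147 and 180 bp ahead of the annotated genes, so these tags may belong to other transcripts. With a window of 200 bp in place of 500 bp the log2 gap fell from 4.69 to 0.52 in AT3G32043. In AT5G38275 it fell from 4.82 to 1.35. The gap of AT1G16660, whose start has 1 near-identical copy, stayed at 4.04. CCR1 and RACK1C_AT were chosen after their values were seen. CCR1, a clock-controlled RNA-binding protein, had 149.6 and 191 CPM for Kly-1 and Shigu-2 and 24.3 and 23.4 CPM in the others, whereas its homologue GRP7 overlapped between the pairs with 1056 and 1752 CPM and 1087 and 1329 CPM. RACK1C_AT, a ribosome-associated scaffold protein, had 82.4 and 95.8 CPM and 11.4 and 12.7 CPM.

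**Figure D2:**
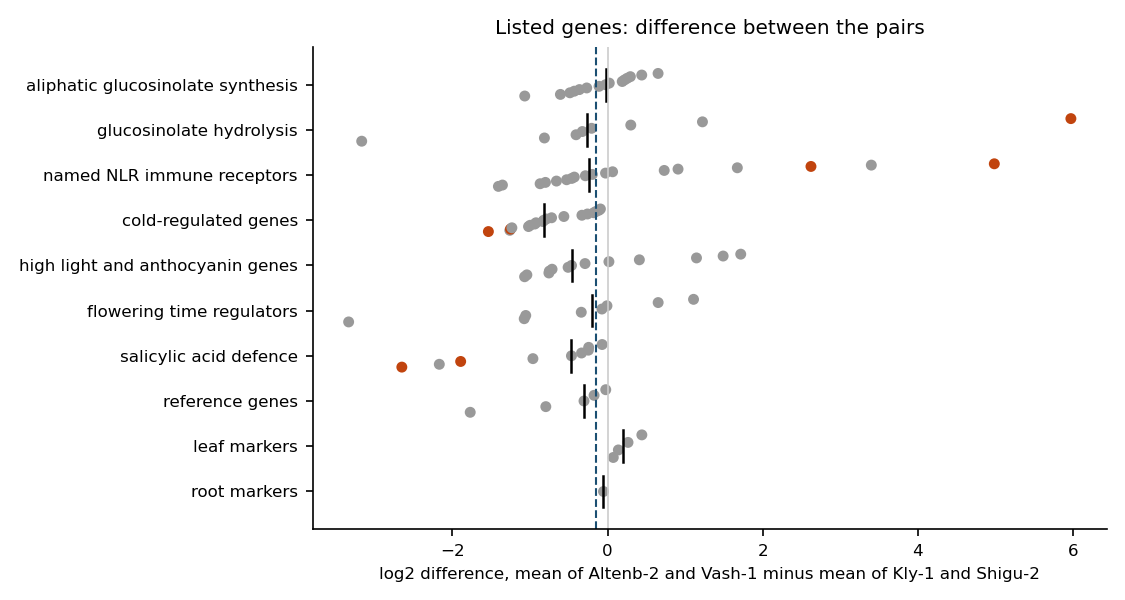
Log2 difference (mean of Altenb-2 and Vash-1 minus mean of Kly-1 and Shigu-2, on levels plus 0.5 CPM) of the tested genes of each list, 1 point per gene, with members in orange, list medians as black bars and the median of all tested genes (-0.15) as a dashed line. All 19 cold-regulated genes and all 9 salicylic acid genes lie below 0, of which 3 and 1 pass to above 0 when scaled by the median of ratios. Of all tested genes 9018 of 13890 lie below 0, and 6935 of 13887 under the median of ratios.

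The remaining lists held no member, but they do not cover every gene of a pathway. AT5MAT, an anthocyanin malonyltransferase described further below, met the rule on the side of Altenb-2 and Vash-1. It is not on the list of high light and anthocyanin genes. Of 13 tested high light and anthocyanin genes 8 had a difference below 0 and 5 above, with a median of -0.46. Both Altenb-2 and Vash-1 stood above both others in 3 of the 13, which held for 13.3% of all tested genes, and the reverse held in 5, beside 35.7%. ELIP1, an early light-induced protein, had 505 and 837 CPM against 1025 and 1744 for Kly-1 and Shigu-2 and was on the low side. DFR, a step of anthocyanin synthesis, had 10.2 and 23.5 CPM against 2.52 and 7.36, with both Altenb-2 and Vash-1 above both others, as in UF3GT and TT7. The 15 tested genes of aliphatic glucosinolate synthesis had a median difference of -0.02, the 8 flowering time regulators -0.21 and the 5 reference genes -0.30. The 4 leaf markers had +0.20, which turned to -0.11 when ribosomal tags were kept in the total.

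Among the other annotation families, the shares of members stand beside 2.09% of all tested genes. Cytochromes P450 had 3 members on the first side and 1 on the second of 81 tested, 4.94%. UDP-glycosyltransferases had 4 and 1 of 74, 6.76%. Genes with kinase in their product name had 5 and 10 of 518, 2.90%, among them RACK1C_AT, which is no kinase. Ribosomal protein genes had 1 member on each side of 291, 0.69%. Their median difference of -0.34 was -0.19 under the median of ratios.

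The split between the directions depended on the scaling. Of the 290 members 44.8% were higher in Altenb-2 and Vash-1. The share was 56.8% under the median of ratios and 56.4% under TMM, the trimmed mean of M-values, and 19.7% when ribosomal tags were kept in the total.

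The members differed in how firmly both sets of a pair bear the pattern. The nearest sets differed 4 times or more in 62 genes of the first side and 60 of the second, and 10 times or more in 42 and 31. A ratio is defined for 109 and 147 members, because both low sets were unlisted in the rest. The median log2 gap was 1.47 and 1.37. The high sets lay a median 1.37 times apart on the first side and 1.21 times on the second, but over 4 times apart in 22 and 8 genes. In such genes 1 set carries the level, as in the transcribed pseudogene AT5G33251, picked after its values were seen, which had 263 and 1.06 CPM for Altenb-2 and Vash-1 and 0.512 and 0.242 for Kly-1 and Shigu-2. Vash-1 was the highest set in 71 of the 130 genes and Shigu-2 in 91 of the 160. At least 1 set was unlisted in 64 of the 290 members and in 225 of the 13890 tested genes, and both low sets were unlisted in 21 members of the first side and 13 of the second.

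When clusters with their highest base past the start codon were added, 116 of the 130 and 144 of the 160 members still met the rule and 30 did not. Some of the 30 only slipped under the limit, as GRP5 did with a log2 gap of 1.04 that became 0.95. Over all genes the rule then found 133 for Altenb-2 and Vash-1, 0.928% of 14333 tested, and 153 for Kly-1 and Shigu-2, 1.07%. AT1G15140, an oxidoreductase, had 179 and 127 CPM for Altenb-2 and Vash-1 and 0.648 and 1.75 for Kly-1 and Shigu-2 before the start codon. Past it, the gene had 0.935 and 0.815 CPM for Altenb-2 and Vash-1 and 144 and 153 CPM for Kly-1 and Shigu-2. The sums of 179.9 and 128 CPM and 144 and 154 CPM were within 1.5 times of each other. Its largest clusters overlapped in all 4 sets and were 222 to 274 bp wide, the highest base held 12.5% to 14.2% of their tags, and the highest bases of the pairs were 93 bp apart.

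Of 78 members with at least 1 CPM past the start codon, 17 had the opposite pattern there. They were 7 of 40 on the first side and 10 of 38 on the second. The same pattern was found in 14, 7 of each side. Of 3649 tested genes with such tags, 3.45% were higher there in Altenb-2 and Vash-1 and 5.56% in Kly-1 and Shigu-2. For the opposite pattern, 5.56% thus stands beside the first side and 3.45% beside the second. In 16 of the 17 the largest clusters of all 4 sets overlapped, and the gene's highest genic base lay 3 to 131 bp from its highest base past the start codon, with a median of 31 bp. In 15 of the 17, which are among the 30, the sums did not meet the rule. The stretch from one of these bases to the other is printed for AT1G02475 and AT5G12040 on TAIR10.1, because it shows how near both lie to the start codon; the capitals are both bases and the start codon between them.
AT1G02475, chr1:515318-515345, minus strand: ctAaggaagcttcaATGtctgtagtAgc
AT5G12040, chr5:3885152-3885187, plus strand: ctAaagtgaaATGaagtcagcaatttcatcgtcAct
AT1G02475, of a lipid transport family, had 104 and 102 genic CPM for Altenb-2 and Vash-1, whose highest base was the first one, and was unlisted in the others, which had 108 and 113 CPM past the start codon. AT5G12040, of the nitrilase family, had 50.1 and 62.2 genic CPM for Kly-1 and Shigu-2, and 51.02 and 59.3 CPM past the start codon in Altenb-2 and Vash-1. The largest clusters of all 4 sets spanned the start codon in both genes, and what differed was the side on which the highest base lay. That base held 13.1% to 14.4% of the cluster's tags in AT1G02475 and 15.3% to 18.6% in AT5G12040.

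RUP2, UGT72B3, AT1G24290 and CYTC6A were among the 17 as well. RUP2, a repressor of the UV-B receptor UVR8, had 47.7 and 74.5 genic CPM for Kly-1 and Shigu-2 and 59.3 and 81.6 CPM past the start codon in Altenb-2 and Vash-1. UGT72B3, a glucosyltransferase, had 28.8 and 31.9 genic CPM for Kly-1 and Shigu-2 and 27.6 and 60.2 CPM past the start codon in the others. AT1G24290, an ATPase family gene, had 12.9 and 14.3 genic CPM for Altenb-2 and Vash-1, and its sums did not meet the rule either. CYTC6A, a relative of cytochrome c6, had 68.9 and 67.01 genic CPM for Kly-1 and Shigu-2 and none listed in the others. Its sums of 71.3 and 69.2 CPM for Kly-1 and Shigu-2 and 16.03 and 33.1 CPM in the others still met the rule.

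**Figure D3:**
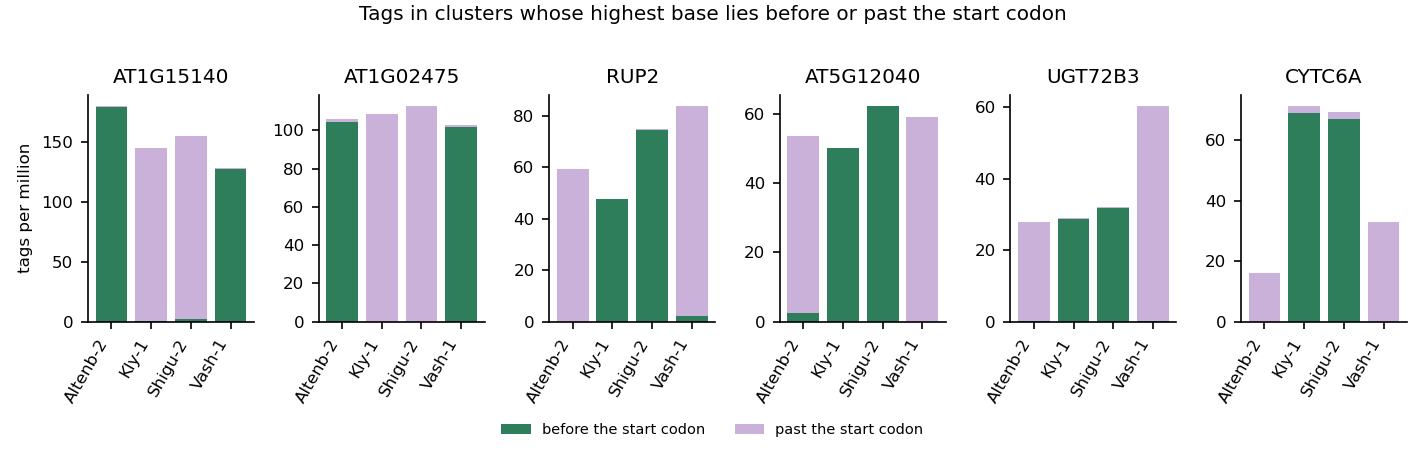
CPM of clusters whose highest base lies before (green) or past (lilac) the start codon, stacked for each of the 4 pooled sets in 6 members. In AT1G15140, AT1G02475, RUP2, AT5G12040 and UGT72B3 the colours change between the pairs while the totals do not keep the 2-fold gap, and in CYTC6A the totals keep it.

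The highest base also differed more often among members than among tested genes. Of 226 members with a genic cluster in every set, 91 had it at one base in all 4, or 40.3% (33.8 to 47.0), where 62.9% of 13665 tested genes did. With at least 50 tags in every set the shares were 44.6% and 63.8%. In 36 members, 15.9% (11.4 to 21.4), the base was shared within each pair and differed between them, where 3.85% of tested genes did so. With at least 50 tags in every set it was 19.2% and 3.84%. The low sets of members hold fewer tags, and the part of that in these shares was not tested. The starts of 5 such members with at least 10 CPM in every set are printed on TAIR10.1, because the bases of the pairs lie close enough to be seen together; both are in capitals.
ADC2, chr4:16562951-16562980, minus strand: tcatcaatctcAcgccttcTcttcttcttc
CSLC04, chr3:10505822-10505851, plus strand: tttacttagttGgttcacttcagcacatGa
SR34b, chr4:1068963-1068992, plus strand: tttcaattttcGcctTtcttcttctcttcc
AT1G33970, chr1:12351224-12351253, minus strand: tatttttctctAagattGtcgctttagctt
EXPA8, chr2:16950537-16950566, minus strand: ttgtagattccAtattatTcacgattctca
In ADC2 the first base held 80.9% and 82.0% of the cluster's tags in Altenb-2 and Vash-1, and the second, 8 bp downstream, held 93.4% and 93.0% in Kly-1 and Shigu-2. In EXPA8, an expansin that loosens cell walls, the bases were 7 bp apart, and levels were 48.5 and 39.9 CPM against 11.5 and 15.8 for Kly-1 and Shigu-2. In CSLC04, which makes the backbone of xyloglucan, they were 17 bp apart and levels were 28.4 and 24.3 CPM against 88.2 and 62.3. SR34b, a splicing factor, had 35.1 and 32.2 CPM against 14.9 and 15.1, with the bases 4 bp apart. AT1G33970, a nucleotide-binding P-loop protein, had 14.3 and 18.95 CPM against 58.4 and 63.8, with the bases 6 bp apart. Altenb-2 and Vash-1 used the upstream base in 4 of these 5 genes and the downstream one in SR34b. The 5 genes were picked, and the direction was not counted over the 36 members or over all tested genes. Among genes that were no members both directions occurred, with Altenb-2 and Vash-1 upstream in MT3 and downstream in LOX2.

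TATA motifs were more frequent before the members' starts. TATAAA or TATATA, which can overlap, were searched on the strand of the gene, with the first base 40 to 25 bases before the highest base. They were found in 104 of 290 members, 35.9% (30.3 to 41.7), and in 22.0% of tested genes. Both sides had similar shares, with 47 of 130 and 57 of 160. In a window 100 bases farther upstream the shares were 3.10% of members and 3.45% of tested genes. Among the 260 members that met the rule with tags past the start codon the share was 37.3%. The members' clusters had a median width of 30.3 bp, where tested genes had 63.0 bp, and the highest base held a median 54.2% of the tags, where tested genes had 41.0%. Each gene entered with its median over the sets, the low pair included. By the rule the low sets of members have lower levels, and the part of that in both medians was not tested. The median of the highest level was 15.1 CPM for members and 23.6 CPM for tested genes, and its part in these shares was not tested.

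**Figure D4:**
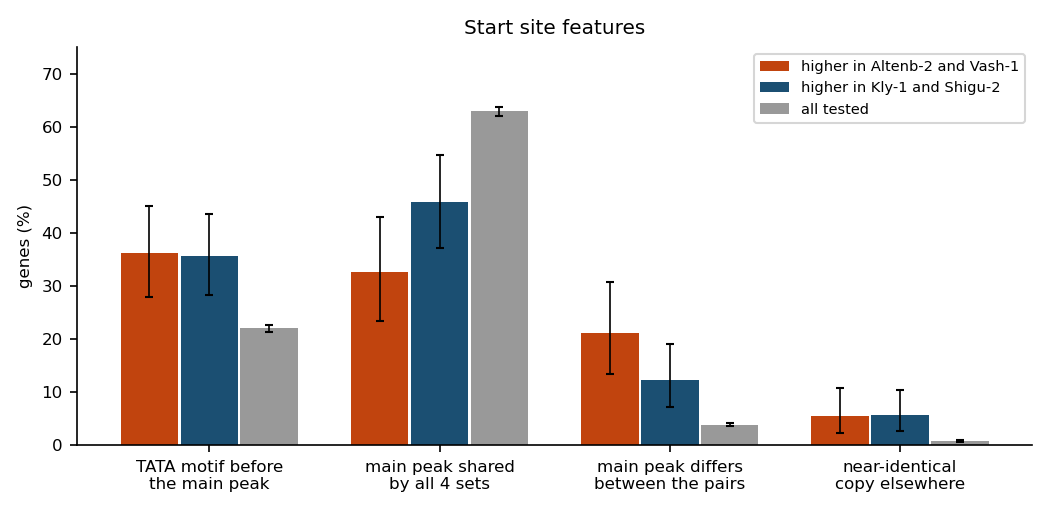
Share of genes (%) with 4 start site features among members higher in Altenb-2 and Vash-1 (orange), members higher in Kly-1 and Shigu-2 (blue) and all tested genes (grey); bars are exact binomial 95% intervals over genes. TATA motifs stand at 36.2%, 35.6% and 22.0%, and a highest base shared by all 4 sets at 32.6%, 45.8% and 62.9%.

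Near-identical copies and non-coding genes were also more frequent. At least 90 bp of the first 100 bp had a match of 95% identity elsewhere in the reference for 16 of 290 members, 5.52% (3.19 to 8.81), and for 0.80% of tested genes. Levels of those 16 are uncertain because copies may share tags. Protein-coding genes made up 262 of the members, 90.3%, and 97.9% of tested genes. Of 87 tested pseudogenes 6 were members of the first side and 4 of the second, together 11.5%, where 2.09% of all tested genes were members. The highest base lay over 100 bp ahead of the annotated start in 11 members, 3.79%, and in 0.68% of tested genes.

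Some members were neighbours. Counting tested genes along the chromosomes, 12 of the 130 members of the first side, 9.23%, stood beside another of that side, where 1.85% of all tested genes had such a neighbour. For the second side it was 9 of 160, 5.62%, where 2.28% of tested genes had one. These 21 genes formed 9 pairs and 1 run of 3, which lay on chromosome 5 between 18429047 and 18449446 (TAIR10.1) and was higher in Kly-1 and Shigu-2. AT5G45490, a nucleotide-binding P-loop protein, had 33.7 and 25.4 CPM there and 1.74 and 1.96 CPM for Altenb-2 and Vash-1. AT5G45500, with an RNI-like fold, lies on the other strand and had 28.6 and 30.1 CPM and 2.805 and 3.38 CPM. AT5G45510, a leucine-rich repeat protein, had 169 and 181 CPM and 10.2 and 9.94 CPM. The pairs were apart by 12.96, 8.46 and 16.5 times in these genes. The tested gene before the run, AT5G45480, had 16.9 and 15.04 CPM and 10.8 and 7.05 CPM, and MOB1-like after it had 50.3 and 47.7 CPM and 38.1 and 46.95 CPM, so neither met the rule.

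AT4G20330 and AT4G20340, a pair named after it was seen, encode the beta and alpha subunits of the general transcription factor TFIIE and lie on opposite strands. AT4G20330 had 7.57 and 9.7002 CPM for Altenb-2 and Vash-1 and 1.57 and 1.24 for Kly-1 and Shigu-2. AT4G20340 had 11.6 and 9.13 CPM for Altenb-2 and Vash-1 and 2.25 and 2.498 for Kly-1 and Shigu-2. Both genes were higher in Altenb-2 and Vash-1.

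**Figure D5:**
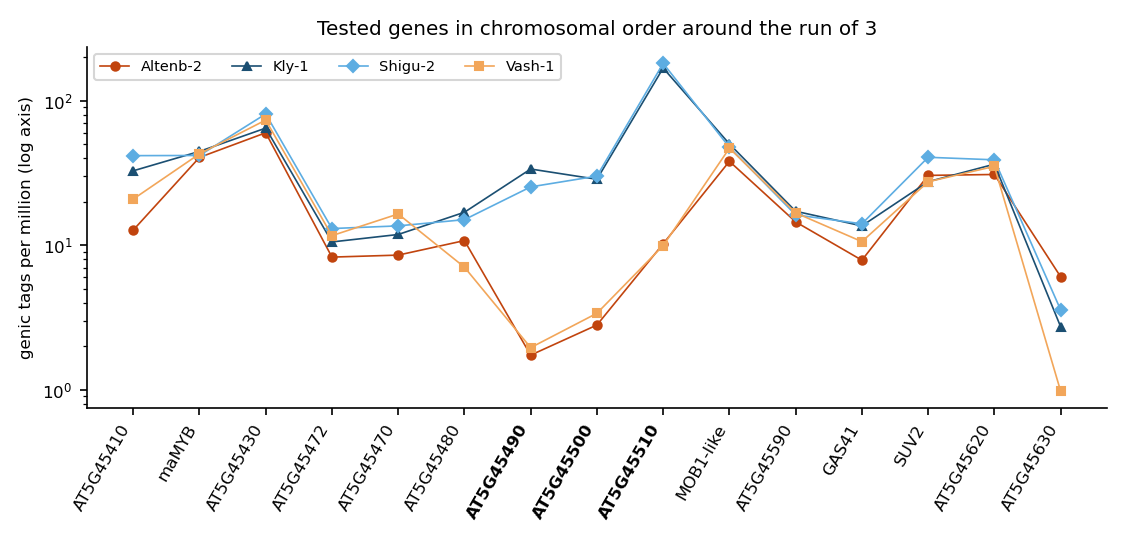
Genic CPM (log axis) in the 4 pooled sets of tested genes in chromosomal order around the run of 3 on chromosome 5, whose names are in bold; lines only join the points of 1 set. The pairs are apart in AT5G45490, AT5G45500 and AT5G45510 and close together at MOB1-like.

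Tags outside the genic windows were set beside the members. Of 13 members of the first side with at least 1 CPM antisense, 3 had the same pattern there, and of 13 of the second side 1 did, where 8.15% and 3.61% of tested genes with such tags did. When overlapping clusters of all sets were joined into loci, the rule was met by 144 of 14248 genic loci for Altenb-2 and Vash-1, 1.01%, and by 177 for Kly-1 and Shigu-2, 1.24%. Of 1160 intragenic loci 25 (2.16%) and 15 (1.29%) met it. Of 157 antisense loci 9 met it on each side, 5.73% and 5.73%, and of 76 intergenic loci 4 (5.26%) and 10 (13.2%). The loci named next were chosen after their values were seen. An antisense locus at AT2G04180, at chr2:1421987-1422103 on the minus strand, had 163 and 164 CPM for Altenb-2 and Vash-1 and 0.819 and 0.725 for Kly-1 and Shigu-2. An intragenic locus of EIF3G1, a translation initiation factor subunit, had 55.3 and 48.6 CPM for Kly-1 and Shigu-2 and 0.534 and 0.204 CPM in the others. An antisense locus at AT4G14090, a glycosyltransferase gene, had 13.9 and 12.03 CPM for Kly-1 and Shigu-2 and 0.712 and 3.34 CPM in the others. The genic level of AT4G14090 ran the other way, with 15.9 and 17.8 CPM for Altenb-2 and Vash-1 and 4.196 and 6.795 for Kly-1 and Shigu-2.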

How the data were processed

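CAGE libraries were made by cap-trapping from total RNA, per the labels' protocols, and the submitters' processing notes name STAR 2.7.9a. The sources used here do not name the genome build or the cluster caller. The authors deposited 317183 clusters with their position, raw tag count and, as a fraction, the share of tags at the highest base. The smallest count was 5. Sets were read from the initials of cluster names. No cluster passed a chromosome end of TAIR10.1, whose RefSeq annotation gave genes and coordinates. A cluster in several windows went to the gene that contains it, then to the nearest start, and non-coding genes were taken to 200 bp past their start. Ribosomal repeats on chromosomes 2 and 3 were left out. Log2 values used a pseudocount of 0.5 CPM. Named genes are, for each side, the 12 widest gaps, the 8 highest levels, members of the lists, and the 3 nearest the limit inside and outside. TMM came from edgeR 4.0.16 and copies from BLAST 2.17.0. The rule was also run on simulated counts with known changes. These held counting error only, so differences between libraries, treatment mixes or accessions were not covered. Members and lists were chosen with earlier results of these data known. PCR copies are not independent molecules.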

Additional observations from a re-analysis of the deposited data

How the results depend on the processing

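No paired analysis was possible because the table holds 1 pooled set per accession, and for the same reason no library could be left out. The 130 members higher in Altenb-2 and Vash-1 and the 160 higher in Kly-1 and Shigu-2 became 63 and 256 with ribosomal tags kept in the total, 230 and 322 at a minimum of 1 CPM, 57 and 64 at 20 CPM, 242 and 487 at a fold of 1.5, and 77 and 80 at a fold of 3. They were 159 and 121 under the median of ratios and 155 and 120 under TMM, and both found all 130 genes of the first side again and 121 and 120 of the 160. Setting unlisted genes at 4 tags, thinning to equal depth, the largest cluster alone, adding tags past the start codon, a 200 bp window, and leaving out clusters in windows of several genes, which was chosen after seeing the data, kept both counts within 1.5 times. With tags past the start codon added, the log2 gap in the direction of the member was -0.13 in AT1G02475, -1.05 in UGT72B3, -0.80 in RUP2, -0.24 in AT5G12040 and -0.27 in AT1G15140, and it was above 0 in 36 of the 41 named genes. With the 200 bp window it was -0.09 in AT4G08425, 0.52 in AT3G32043 and 1.35 in AT5G38275. The share of members with one highest base in all sets was 50.9% when bases within 5 bp counted as one, and the share with TATAAA alone was 22.8%, where 14.0% of tested genes had it. Depth limits the low sets, since 5 tags are 0.223 CPM in Altenb-2 and 0.134 in Shigu-2.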

Other observations

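The genes named here were chosen after their values were seen. AT3G27360, a histone gene, had 20.6 and 21.7 CPM for Altenb-2 and Vash-1 and 0.716 and 1.101 for Kly-1 and Shigu-2. HTA2, a histone H2A gene, had 18.9 and 21.3 CPM for Kly-1 and Shigu-2 and 1.91 and 1.75 CPM for Altenb-2 and Vash-1, and AT5G10390 had 27.3 and 29.1 CPM and 6.59 and 3.63 CPM. Genes of a multigene family may share tags, and other members annotated as histones are not described.

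AT5MAT, an anthocyanin malonyltransferase, had 11.8 and 13.001 CPM for Altenb-2 and Vash-1 and 1.54 and 5.37 for Kly-1 and Shigu-2. AT1G03495, of the same HXXXD family, had 25.4 and 22.1 CPM for Altenb-2 and Vash-1 and 5.12 and 9.72 for Kly-1 and Shigu-2. AT5G42830, also annotated to that family, had 12.9 and 5.45 CPM for Kly-1 and Shigu-2 and 1.56 and 1.304 CPM in the others.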
